A study of Homo sapiens with 9 samples.

Results

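LEF1, TCF7, TCF7L1 and TCF7L2 are the 4 human genes of the LEF1/TCF transcription factor family. They were found by their symbols among the 33216 genes of each expression table, and all 4 were listed in all 9 libraries. The libraries came from CAL-27, an established human tongue squamous cell carcinoma line, in 3 groups of 3: Control, siLEF1 (siRNA against LEF1) and siKDM4A (siRNA against the histone demethylase gene KDM4A). Cells were sampled at 48 h, and no other allele or agent is given for any group. That the Control cells received a control siRNA is assumed, since the labels and methods do not state it for these libraries. They do not state either which of the 2 listed siRNAs per target was used here. The methods call the 3 samples of a group independent and do not say whether they were separate cultures or transfections, so p-values measure the spread between these samples.

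LEF1/TCF proteins bind DNA through a high mobility group (HMG) box and form the nuclear end of canonical Wnt signalling. Without a Wnt signal they recruit corepressors of the Groucho/TLE family, and when β-catenin accumulates it binds their amino-terminal end and brings coactivators to the same genes. The family members are best known from different tissues: TCF7L2 from intestinal epithelium, LEF1 from hair follicle and lymphocytes, TCF7 from T cells, and TCF7L1, which acts mostly as a repressor, from stem cells and the epidermis.

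The siRNAs are shown first because a siRNA against LEF1 can resemble the coding sequence of its relatives. The antisense (guide) strands listed for the study are given 5′ to 3′ without the overhang, with the seed (bases 2 to 8) in capitals.
si-LEF1-01: uUCUUACCauaauugucuc
si-LEF1-02: uUCACGUGcauuaggucac
si-KDM4A-01: uUGCUUAAaggcugacggc
si-KDM4A-02: uUGUACUGaguaaagaggc

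Both sites in LEF1 lay in its coding sequence and crossed an exon junction in GRCh38. The site of si-LEF1-01 joined 8 bases at chr4:108064377-108064384 to 11 bases at chr4:108070663-108070673 on the minus strand. The site of si-LEF1-02 joined 3 bases at chr4:108078380-108078382 to 16 bases at chr4:108079492-108079507. Each site was present in 4 of the 6 protein-coding LEF1 transcripts of GENCODE 29, and in no transcript of another gene. The closest ungapped match to si-LEF1-01 in each family gene is written below as the transcript reads, with bases that differ from LEF1 in capitals.
LEF1: gagacaattatggtaagaa
TCF7L1: gGgacaaCtatggtaagaa
TCF7: gGgacaaCtaCggGaagaa
TCF7L2: gGgaTaaCtatggAaagaa

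All 4 of these sites are coding sequence. The TCF7L1 site differed from the siRNA at 2 of 19 bases, none of them opposite the seed, and the TCF7 and TCF7L2 sites at 4 each, with 1 opposite the seed. For si-LEF1-02 the closest matches differed at 5 bases in TCF7L2 and at 7 each in TCF7 and TCF7L1. The 2 siRNAs against KDM4A differed from their closest match in any family gene at 5 to 7 bases. No complement of the 4 guide seeds was present in the longest annotated 3′ UTR of any family gene, while 3.50% to 12.4% of the 3′ UTRs of 18813 genes held a given complement.

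The authors deposited FPKM, in which the fragments of a gene are scaled by its exon length and by sequencing depth. Libraries held 15263085 to 17126523 reads behind these values, recovered from the steps between them. At that depth 3 reads on a gene of 1 kb are worth 0.175 to 0.197 FPKM. KDM4A (ENSG00000066135) measured 16.5 ± 0.0944 FPKM in Control, 14.0 ± 0.250 in siLEF1 and 2.77 ± 0.0111 in siKDM4A (SD, n = 3), so the library labels matched the targeted gene. All 6 markers fixed for squamous epithelium (KRT5, KRT14, KRT6A, TP63, CDH1, EPCAM) were at 1 FPKM or more in Control and siLEF1, with sums of 435 to 464 and 491 to 496 FPKM. In siKDM4A 4 of the 6 were, with a sum of 211 to 220 FPKM. From Control to siKDM4A the mean of KRT5 went from 232 to 25.3 FPKM and KRT14 from 25.8 to 0.758. KRT6A went from 27.6 to 0.654 and TP63 from 31.6 to 11.9 FPKM. CDH1 was higher, at 65.1 against 59.4 FPKM, as was EPCAM, at 111 against 73.5. The part of this shift in the results below was not tested. Of 6 markers of T cells and other immune cells, in which LEF1 and TCF7 are abundant, 5 were listed. They summed to 0.174 to 0.492 FPKM over all libraries. PTPRC (CD45) and CD3D were at 0 in every Control library, while CD3E averaged 0.183, CD8A 0.131 and CD4 0.00477 FPKM there. Fibroblast markers summed to 2.71 to 4.40, endothelial markers to 0.694 to 2.86 and melanocyte markers to 1.55 to 2.36 FPKM.

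**Figure D1:**
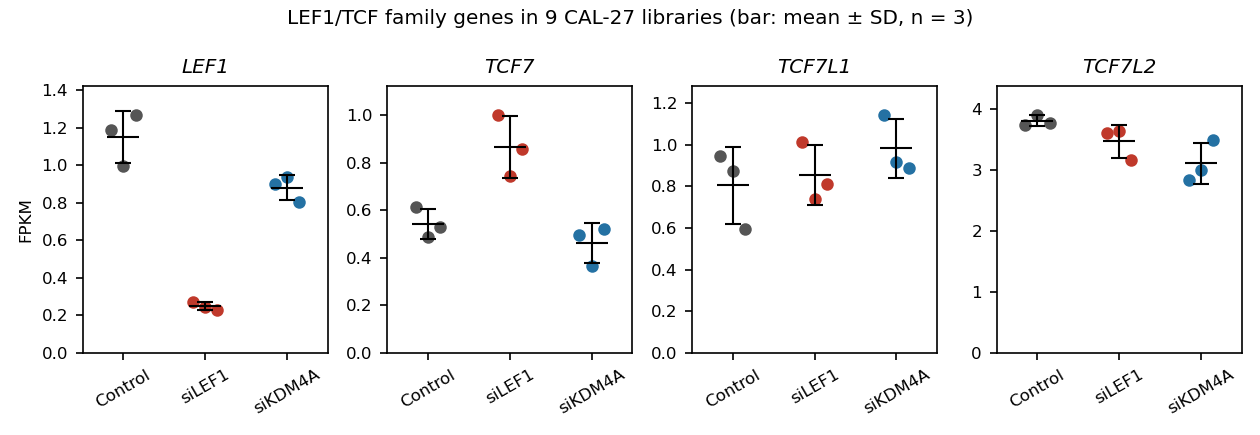
FPKM of each family gene (y axis, separate scale for each gene) in the 3 libraries of each group (points), with the mean and SD as bars. LEF1 was lowest in siLEF1, where all 3 libraries sat between 0.230 and 0.270 FPKM, and TCF7 was highest there, between 0.743 and 1.002 FPKM.

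TCF7L2 was the most abundant family gene in all 9 libraries. In these bulk values fewer expressing cells and less RNA per cell cannot be told apart, here or for the other genes. TCF7L2 (ENSG00000148737) lies at chr10:112950250-113167678 on the plus strand. Its Control libraries measured 3.74, 3.91 and 3.77 FPKM, from 388 to 409 reads. The siLEF1 libraries measured 3.61, 3.64 and 3.16 FPKM, and the siKDM4A libraries 2.84, 3.00 and 3.48 FPKM. Every library of either knockdown was below every Control library. The log2 fold change of FPKM + 0.1 was -0.13 in siLEF1 (95% interval -0.31 to 0.05, limma, adjusted p = 0.234). It was -0.29 in siKDM4A (95% interval -0.50 to -0.08, limma, adjusted p = 0.0467), which passed the adjusted p but not the fold threshold of 1.5. With the adjusted p alone, 33.1% of the 21253 genes tested in siKDM4A passed, and 32.5% of the 21831 in siLEF1. The value in siKDM4A passed the adjusted p in 1 of the 6 fits that left out a library, without siKDM4A replicate 3 (limma, adjusted p = 0.0168), and its adjusted p was 0.0987 to 0.124 without any of the other 5. It also missed that threshold with scaled libraries (-0.23, limma, adjusted p = 0.0888), with a pseudocount of 1 (0.0503), with no filter (0.0649), without a variance trend (0.0691) and with treat. It passed in a voom fit to the recovered reads (-0.30, adjusted p = 0.00413). In limma it passed with a filter of 1 FPKM (adjusted p = 0.0268), a joint fit of the 9 libraries (0.0321) and a pseudocount of 0.01 (0.0465). None of these fits passed the fold threshold of 1.5.

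LEF1 was second to TCF7L2 in Control. LEF1 (ENSG00000138795) lies at chr4:108047545-108168956 on the minus strand. Its Control libraries measured 1.19, 0.997 and 1.27 FPKM, from 83 to 104 reads. The siLEF1 libraries measured 0.270, 0.246 and 0.230 FPKM, from 21 to 23 reads each, and so kept 21.6% of the Control mean. The siKDM4A libraries measured 0.898, 0.937 and 0.806 FPKM, or 76.5% of the Control mean. The 3 groups did not overlap, with siKDM4A between the others. LEF1 fell in siLEF1 by 1.84 on the log2 scale (95% interval -2.31 to -1.37, limma, adjusted p = 0.000572). Its log2 fold change in siKDM4A was -0.35 (95% interval -0.71 to 0.02, limma, adjusted p = 0.134) and did not pass. Counting error alone gives a coefficient of variation of 10.2% in Control and 21.5% in siLEF1 at these read numbers. The antisense transcript LEF1-AS1, which overlaps the start of LEF1, was listed with 0 to 8 reads in any library. Whether reads were exchanged between them in counting was not tested.

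TCF7 was the least abundant member in Control by FPKM and the only family gene whose mean was higher than Control by 1.5-fold or more in a knockdown. TCF7 (ENSG00000081059) lies at chr5:134114711-134151865 on the plus strand. Its Control libraries measured 0.613, 0.486 and 0.527 FPKM, from 76 to 96 reads. The siLEF1 libraries measured 1.002, 0.743 and 0.858 FPKM, from 119 to 160 reads, and each was above each Control library. In siKDM4A the values were 0.497, 0.365 and 0.522 FPKM, which overlapped Control. The siLEF1 mean was 160% of Control, with a log2 fold change of 0.59 (95% interval 0.13 to 1.04, limma, adjusted p = 0.0572), which missed the adjusted p threshold of 0.05. In a voom fit to the recovered reads it passed at 0.67 (adjusted p = 0.000225), and in limma without a variance trend (adjusted p = 0.0293). In siKDM4A the log2 fold change was -0.20 (95% interval -0.74 to 0.33, limma, adjusted p = 0.548).

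The 3′ part of TCF7 overlaps SKP1, a ubiquitin ligase subunit gene on the other strand, over 210 of 10063 exon bases (2.09%). SKP1 was looked at after the TCF7 values were seen. It measured 7.86 ± 0.102 FPKM in Control, 6.63 ± 0.168 in siLEF1 and 6.68 ± 0.136 in siKDM4A (SD, n = 3), and was thus lower than Control in both knockdowns. Whether reads of SKP1 were counted on TCF7 was not tested. No stretch of 50 bases was shared between transcripts of different family genes, and no such stretch of LEF1, TCF7 or TCF7L2 was present in another gene. In TCF7L1 8 of 4362 such stretches (0.183%) were.

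TCF7L1 overlapped between all groups. TCF7L1 (ENSG00000152284) lies at chr2:85133410-85310388 on the plus strand. Its Control libraries measured 0.946, 0.875 and 0.594 FPKM, from 40 to 65 reads, the widest relative spread in the family (coefficient of variation 23.1%, against 13.5% from counting alone). The siLEF1 libraries measured 1.01, 0.740 and 0.811 FPKM and the siKDM4A libraries 1.15, 0.916 and 0.886 FPKM. The log2 fold change was 0.09 in siLEF1 (95% interval -0.44 to 0.62, limma, adjusted p = 0.801) and 0.27 in siKDM4A (95% interval -0.24 to 0.78, limma, adjusted p = 0.394). Without Control replicate 3 the siLEF1 value turned to -0.09 and without siLEF1 replicate 1 to -0.03, so its direction rested on single libraries.

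**Figure D2:**
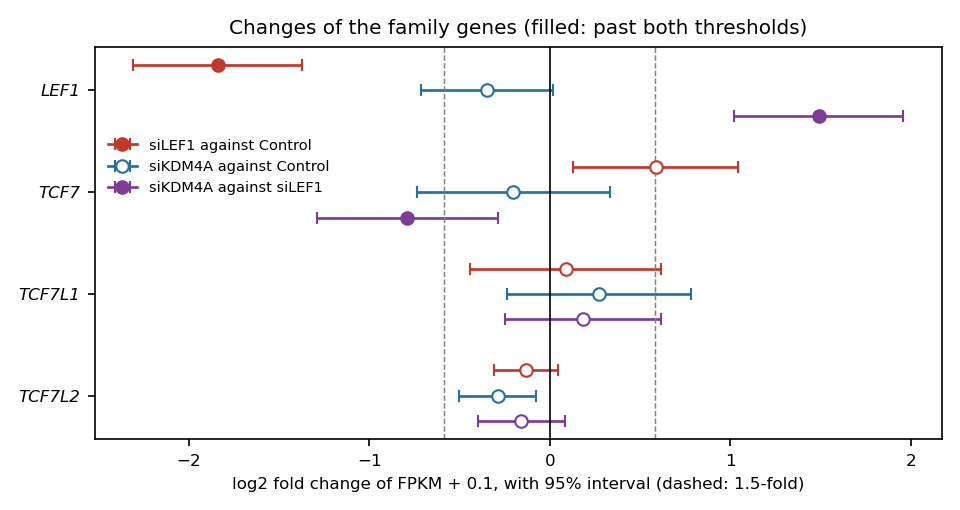
Log2 fold change of FPKM + 0.1 (x axis) with its 95% interval for the 4 family genes in the 3 comparisons. Filled points passed an adjusted p of 0.05 and the 1.5-fold lines (dashed), which was LEF1 in siLEF1 and, between the knockdowns, LEF1 and TCF7. LEF1 is the targeted gene of siLEF1.

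By both thresholds 1 of the 4 family genes was called in siLEF1, the targeted LEF1 itself, against 11.6% of all genes tested. In siKDM4A 0 of 4 were called by limma against 12.0%, and 0 by voom. At an unadjusted p under 0.05, or by adjusted p alone, 1 of the 4 passed there, TCF7L2. The libraries did not overlap for 3 of 4 family genes in siLEF1 (46.3% of all genes tested) and for 2 of 4, LEF1 and TCF7L2, in siKDM4A (47.1%), and counts of 4 genes against such a background say nothing of the family as a whole.

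The comparison of siKDM4A with siLEF1 tests whether the 2 knockdowns differ, and it uses no Control library. Both LEF1 and TCF7 passed both thresholds there, 2 of 4 against 15.3% of the 21493 genes tested, and the same 2 did not overlap (49.6% of all genes). LEF1 is the targeted gene of siLEF1, so its call repeats the knockdown check. TCF7 was the only family gene called there that was not targeted. LEF1 was higher in siKDM4A by 1.49 on the log2 scale (95% interval 1.02 to 1.96, limma, adjusted p = 0.00118). TCF7 was lower in siKDM4A by a log2 fold change of -0.79 (95% interval -1.29 to -0.29, limma, adjusted p = 0.0251). This TCF7 call was lost without siLEF1 replicate 1 at -0.69 (limma, adjusted p = 0.0863), without siLEF1 replicate 3 at -0.79 (0.0712) and without siKDM4A replicate 2 at -0.66 (0.0638). TCF7L1 differed by 0.18 (95% interval -0.25 to 0.61) and TCF7L2 by -0.16 (95% interval -0.40 to 0.08), and neither passed.

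The 4 genes summed to 6.31 ± 0.162 FPKM in Control, 5.44 ± 0.424 in siLEF1 and 5.43 ± 0.244 in siKDM4A (SD, n = 3). The lowest Control sum, 6.17 FPKM, was above the highest sum of either knockdown, 5.90 and 5.70 FPKM. These sums and the shares below divide each gene by all its annotated exons, 10063 bases for TCF7. By the length of the longest coding transcript, given below, the summed levels of the siLEF1 and Control libraries overlapped. Those of siKDM4A stayed below Control. The shares were not computed with that length. The targeted LEF1 is part of the sum, and it fell from 1.15 to 0.249 FPKM in siLEF1. That fall by itself lowers the sum there and raises the shares of the other genes. The make-up by FPKM differed between the groups. LEF1 made up 18.3% of the family's FPKM in Control, 4.57% in siLEF1 and 16.3% in siKDM4A. TCF7 made up 8.59%, 15.9% and 8.46%, and its share in every siLEF1 library, 13.8% or more, was above its share in every other library. TCF7L1 made up 12.7%, 15.7% and 18.1%, and TCF7L2 60.4%, 63.8% and 57.1%. The shares of TCF7L2 in the knockdowns overlapped those in Control.

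**Figure D3:**
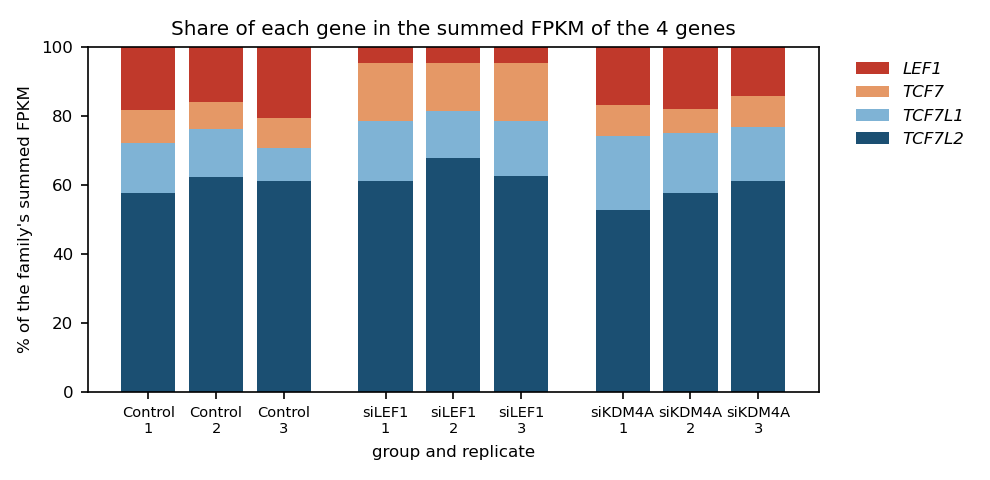
Share of each family gene in the summed FPKM of the 4 genes (y axis, percent), with 1 bar for each library. The LEF1 segment shrank to 4.54% to 4.59% in the siLEF1 libraries, where the TCF7 segment took 13.8% to 17.0%. The sum includes the targeted LEF1, so its fall by itself raises the other shares there.

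In Control the order of FPKM was TCF7L2, LEF1, TCF7L1 and TCF7, where TCF7L1 and TCF7 overlapped between libraries. In siLEF1 it was TCF7L2, TCF7, TCF7L1 and LEF1, where TCF7 and TCF7L1 overlapped. In siKDM4A it was TCF7L2, TCF7L1, LEF1 and TCF7, where TCF7L1 and LEF1 overlapped. Among 21263 genes whose Control mean reached 0.1 FPKM, 60.5% were lower than TCF7L2, 42.6% lower than LEF1, 37.1% lower than TCF7L1 and 30.8% lower than TCF7, so the family as a whole sat in the lower and middle range of expressed genes.

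The order below TCF7L2 depended on the length used. FPKM divides by all annotated exons, which is 10063 bases for TCF7, 6736 for TCF7L2, 5361 for LEF1 and 4414 for TCF7L1. The longest coding transcript of TCF7 is 3330 bases, against 4136 for TCF7L2, 3477 for LEF1 and 2968 for TCF7L1. Per kilobase of that transcript, an alternative chosen after the data were seen, TCF7 measured 1.64 ± 0.195 in Control, close to LEF1 at 1.78 ± 0.216 and above TCF7L1 at 1.20 ± 0.277 (SD, n = 3). In siLEF1 TCF7 measured 2.62 ± 0.393, TCF7L1 1.27 ± 0.212 and LEF1 0.384 ± 0.0314. The siKDM4A values of these 3 genes lay between 1.36 and 1.46. TCF7L2 stayed first in each group, at 6.20, 5.65 and 5.06. Fold changes of a gene do not depend on this length, apart from the pseudocount.

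**Figure D4:**
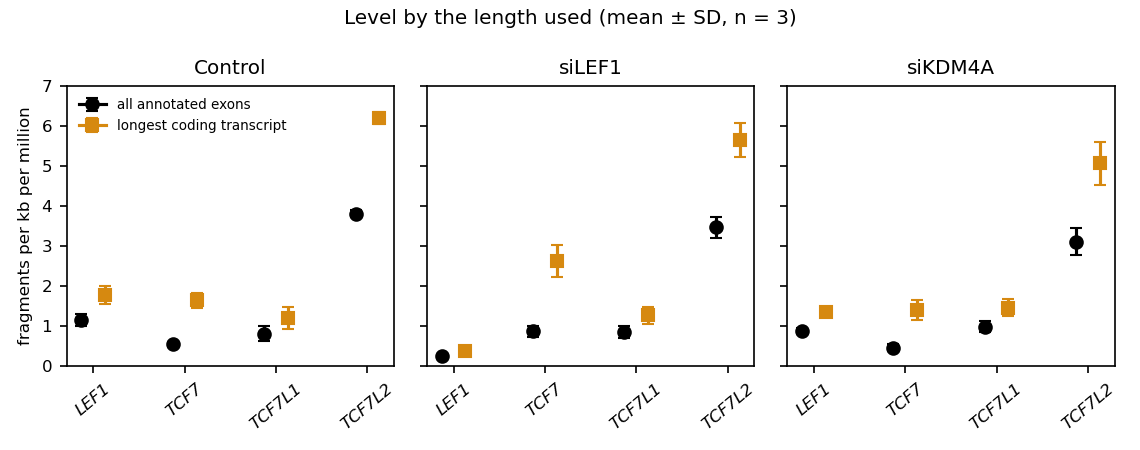
Level of each family gene (y axis, on the scale of FPKM, mean and SD of 3 libraries) by the length of all annotated exons (black circles) and of the longest coding transcript (orange squares). TCF7 moved most in proportion, from 0.867 to 2.62 in siLEF1.

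The promoters of all 4 family genes were searched for the DNA motif that the HMG box binds, since these genes encode its binding proteins. The letters searched were CTTTG followed by a pair of bases that are each A or T, on both strands, in RefSeq windows from 250 bases before to 50 after a start site (GRCh38.p14). A match was present in 1 of 2 TCF7 windows, 1 of 3 TCF7L2 windows and in neither the LEF1 nor the TCF7L1 window, against 13.8% of 35116 windows. The matches are shown 5′ to 3′ on the gene's strand with the motif in capitals; they are descriptions of the letters, not binding sites.
TCF7, chr5:134123557-134123585: ggccccactggAACAAAGgaggagagagg
TCF7L2, chr10:113126489-113126517: aaaatatcaggCTTTGTTcttttgattga

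These matches begin 50 bases before the TCF7 start site and 133 bases before the TCF7L2 start site. Neither window is the most upstream start of its gene.

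The proteins that work with the family were followed through lists of 11 coactivators and 14 corepressors or inhibitors. CTNNB1, which encodes β-catenin, measured 49.6 FPKM in Control, 46.6 in siLEF1 and 42.2 in siKDM4A. Its log2 fold changes of -0.09 (limma, adjusted p = 0.0414) and -0.23 (limma, adjusted p = 0.00118) passed the adjusted p but not the fold threshold. Of 11 coactivators tested in siLEF1, 1 rose, 0 fell by limma or by voom and 10 were not called, where 5.31% of all genes were called lower. At an unadjusted p under 0.05, 3 were higher and 5 lower in limma, and the share of all genes at that level was not computed. The gene that rose was JUP, which encodes plakoglobin, a relative of β-catenin, from 82.7 to 125 FPKM (log2 fold change 0.60, against 6.31% of all genes called higher). In siKDM4A 0 coactivators rose by limma or voom and 2 of 11 fell, against 4.23% of all genes called higher and 7.80% lower. At an unadjusted p under 0.05, 1 was higher and 7 lower in limma, again without a share of all genes. MED12, a subunit of the Mediator kinase module, fell from 6.95 to 3.82 FPKM (-0.84), and CDC73, a subunit of the PAF1 complex, from 20.2 to 13.0 FPKM (-0.64).

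Among the corepressors and inhibitors 13 of 14 were tested. In siLEF1 2 rose, 1 fell and 10 were not called, against 6.31% of all genes called higher and 5.31% lower. AES, a short Groucho/TLE protein, rose from 14.8 to 25.3 FPKM (log2 fold change 0.77). CTNNBIP1, which blocks the binding of β-catenin to TCF proteins, rose from 8.23 to 13.4 FPKM (0.70). The corepressor gene CTBP2 fell from 11.1 to 6.87 FPKM (-0.69). In siKDM4A 0 of the 13 were called by limma, and 0 by voom, against 4.23% called higher and 7.80% lower over all genes. At an unadjusted p under 0.05, 6 were higher and 4 lower in limma. The share of all genes at that looser level was not computed. The medians of the log2 fold changes were -0.09 for coactivators and 0.09 for corepressors and inhibitors in siLEF1, where the median of all genes tested was -0.01. In siKDM4A they were -0.30 and 0.24, beside -0.05 for all genes.

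Known target genes of LEF1/TCF proteins moved in both directions in both knockdowns. Of 35 listed, 31 were in the files and 24 were tested in siLEF1, where 3 rose, 3 fell and 18 were not called (median log2 fold change -0.01). Over all genes tested there 6.31% were called higher and 5.31% lower. EPHB2, an ephrin receptor gene, rose from 3.30 to 7.76 FPKM (1.21). MMP7, which encodes matrilysin, rose from 0.902 to 1.71 FPKM (0.85), and BIRC5, which encodes survivin, from 34.6 to 56.4 FPKM (0.70). CCND1, the cyclin D1 gene, fell from 345 to 207 FPKM (-0.74). DKK1, a secreted Wnt antagonist, fell from 174 to 106 FPKM (-0.72). The third to fall, ID2, lay under 1 FPKM and was named after its values were seen. CCND1, ID2 and BIRC5 were among the genes the study chose from these libraries, so they are not independent of them.

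In siKDM4A 23 of the target genes were tested, of which 4 rose, 6 fell and 13 were not called (median log2 fold change -0.31), against 4.23% of all genes called higher and 7.80% lower. SOX9, a transcription factor gene, rose from 13.6 to 24.6 FPKM (0.85), MYC from 34.0 to 58.1 FPKM (0.77) and BIRC5 from 34.6 to 58.8 FPKM (0.76). CCND1 fell from 345 to 155 FPKM (-1.15). EPHB3, an ephrin receptor gene, fell from 2.04 to 0.863 FPKM (-1.15), and KREMEN1, which encodes a receptor for DKK1, from 6.68 to 3.31 FPKM (-0.99). KREMEN1 measured 8.03 FPKM in siLEF1, where its log2 fold change of 0.26 was not called. AXIN2, a widely used target, was looked at after its values were seen. It measured 0.157 FPKM in Control, and its log2 fold changes of -0.43 (95% interval -1.40 to 0.55) and -0.51 (95% interval -1.39 to 0.38) did not pass. Between siKDM4A and siLEF1, 0 coactivators were higher by limma, voom or an unadjusted p under 0.05, and 2 were lower, 1 corepressor or inhibitor was higher and 1 lower, and 1 target was higher and 3 lower, where 15.3% of all genes were called in either direction. By voom 3 of 11 coactivators, 1 of 13 corepressors or inhibitors and 6 of 26 targets were lower, and 0, 1 and 1 were higher. Over the whole table voom called 3970 genes in either direction in this comparison, against 3289 by limma. The share of the genes tested by voom was not computed.

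**Figure D5:**
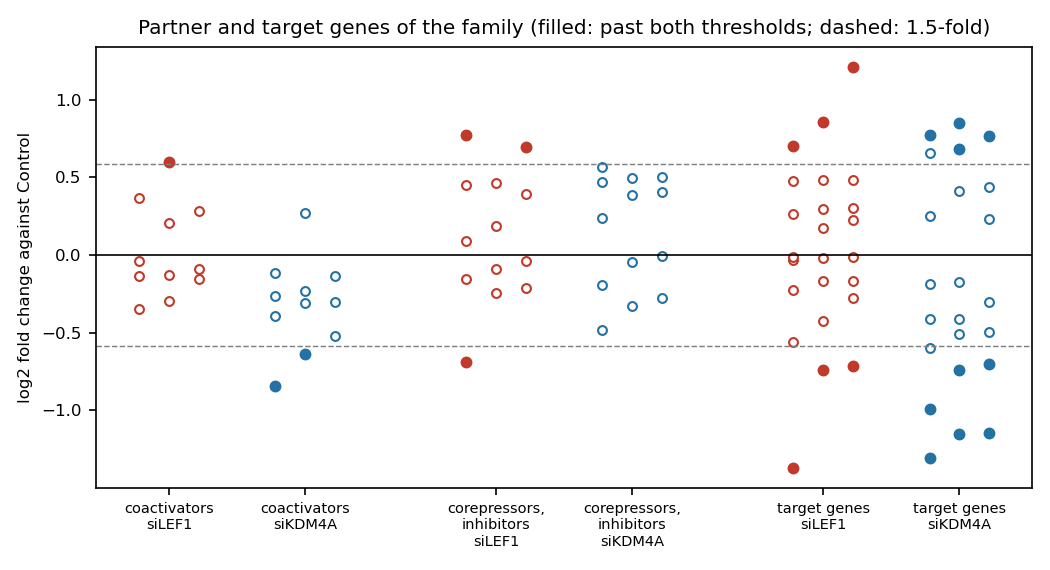
Log2 fold change against Control (y axis) of each tested coactivator, corepressor or inhibitor, and target gene in siLEF1 (red) and siKDM4A (blue), with 1 point for each gene. Filled points passed both thresholds, and the target genes spread to both sides of 0 in both knockdowns.

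The genes most like each member over the 9 libraries were taken as those with the smallest root mean square difference of log2 values, each set against its own Control mean, among 12586 genes whose mean reached 1 FPKM (12585 for TCF7L2, which is itself above 1 FPKM). For LEF1 they were SDCBP (0.133), C12orf49 (0.168), EGFL7 (0.181), EDEM1 (0.187) and CD47 (0.187). SDCBP measured -1.87 in siLEF1 and -0.23 in siKDM4A relative to Control, and EGFL7 -1.95 and -0.21. For TCF7 they were ACOT13 (0.108), THAP8 (0.115), CASK (0.117), COQ8B (0.118) and LHPP (0.129), of which ACOT13 measured 0.57 in siLEF1 and -0.11 in siKDM4A. For TCF7L1 they were TMEM199 (0.111), TRAPPC2 (0.138), ATOX1 (0.140), RPL7AP6 (0.144) and CUTALP (0.146). For TCF7L2 they included ZFHX3 (0.0619), DDX52 (0.0670), TMCO6 (0.0693) and DCUN1D1 (0.0697), and ZFHX3 measured -0.12 and -0.34. LEF1, TCF7 and TCF7L1 had means under 1 FPKM and so were not among the genes compared.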

How the data were processed

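RNA from CAL-27 cells was prepared with a stranded mRNA kit and read on a NovaSeq. FPKM values were deposited in 1 table for each of the 9 libraries. The submitters' processing notes name hg38, Trimmomatic, HISAT2, HTSeq and Cufflinks; whether counting used strand and which annotation release was used are not given in the sources used here. The exon lengths behind the FPKM of all 4 members equalled GENCODE 29, which held 33074 of the 33216 identifiers. Reads were recovered as whole multiples (tolerance 0.02 reads) for all genes. FPKM is normalized by total reads only, so a shift in a few abundant genes moves all others.

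Fits used limma 3.58.1 in R 4.3.3 (lmFit, eBayes with a trend) on log2(FPKM + 0.1), for genes averaging 0.1 FPKM or more over the libraries compared, with Benjamini-Hochberg adjustment over all genes tested, an adjusted p under 0.05 and a fold over 1.5. A fold change on this scale understates that of low genes. The 3 comparisons were siLEF1 and siKDM4A against Control, and siKDM4A against siLEF1; both of the former share the Control libraries. Every replicate pair differed beyond sampling noise (mean chi-square over genes of 2.01 to 3.53), and none was treated as duplicated. The siRNA strands come from the study's supplementary material.

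The members, lists and tests were chosen with earlier results of these data known. Named were the members, KDM4A, LEF1-AS1, CTNNB1, the 5 genes most like each member (1 of them is not reported here), and of each list the 3 largest rises and 3 largest falls past both thresholds with a mean of at least 1 FPKM. Alternatives were other pseudocounts (1 and 0.01), filters (none and 1 FPKM), a joint fit of the 9 libraries, libraries scaled to a common median ratio, no variance trend, a block for the replicate number, treat, the adjusted p alone, voom on recovered reads and leaving out each library. The length of the longest coding transcript was added after the data were seen.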

Additional observations from a re-analysis of the deposited data

How the results depend on the processing

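Of 196 values of the family genes under alternatives, 185 kept their direction and side of the threshold. TCF7 in siLEF1 passed at 0.59 in limma without a trend (adjusted p = 0.0293) and at 0.67 with voom (0.000225). Over its 16 alternatives the adjusted p ran from 0.000225 with voom to 1.0 with treat. TCF7 in siKDM4A against siLEF1 was not called with a pseudocount of 1 (-0.35), with no filter (-0.79, limma adjusted p = 0.056) or with treat (-0.79), and ran from -0.88 to -0.66 when a library was left out. TCF7L2 in siKDM4A at -0.29 was called by adjusted p alone, and its adjusted p ran from 0.00413 to 1.0 over 17 alternatives. TCF7L1 in siLEF1 ran from -0.091 to 0.21 when a library was left out. Genes called over the whole table numbered 1405 in siLEF1, 1462 in siKDM4A and 1841 between them with a pseudocount of 1; 566, 586 and 925 with treat; and 7104, 7025 and 7928 by adjusted p alone. The summed FPKM in Control was 6.14 with scaled libraries. With the length of the longest coding transcript TCF7 moved to rank 3 and TCF7L1 to rank 4 in Control, and TCF7 to rank 3 and LEF1 to rank 4 in siKDM4A. The cause of these differences was not tested, apart from the stricter rule of treat and the looser rule of the adjusted p alone. With a filter of 1 FPKM, LEF1 in siLEF1 and between the knockdowns, TCF7 and TCF7L1 were not tested. Same-numbered libraries did not deviate together, with correlations of -0.0401 to 0.0427 over 12586 genes, so the numbers do not pair them. With a replicate block 2245, 2305 and 2953 genes were called in the 3 comparisons, and LEF1 in siLEF1 stayed at -1.84; no call of a family gene changed, and the adjusted p of TCF7L2 in siKDM4A rose to 0.0818. List counts under 2 alternatives all stayed within 1.5 times, though some calls were lost. With a pseudocount of 1 the targets called in siLEF1 went from 3 to 2 higher and from 3 to 2 lower. In siKDM4A they went from 4 to 3 higher and from 6 to 4 lower. LEF1 in siLEF1 rests on the fewest reads of the family, 65 over 3 libraries.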
